A study of Mus musculus with 6 samples.

Results

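Expression of 10 genes of the airway lining, Scgb1a1, Scgb3a1, Scgb3a2, Cyp2f2, Reg3g, Bpifa1, Bpifb1, Muc5b, Pigr and Hp, was followed in 4 single-cell libraries of mouse lung. They were chosen by gene symbol, as 10 of the 56884 genes listed. Each library held lung cells of 2 mice of 1 genotype at postnatal day (P) 21, after leukocytes (CD45+) and red cells (Ter119+) had been depleted on magnetic columns. A first pair was made of the Bdnf control (Bdnf lox/lox) and the Bdnf iPCKO mutant, and a second of the Hgf control (Hgf lox/lox) and the Hgf iPCKO mutant, and values from 4 libraries are given in this order throughout. In the iPCKO mutants a Pdgfrb(BAC)-CreERT2 transgene, active in pericytes and other mural cells, was used to inactivate the floxed growth factor gene, so no gene of the airway lining was targeted. Recombination was induced with 50 µg tamoxifen on P1 to P3, a treatment the labels list for each sample. The controls are labelled lox/lox alone, and whether they carried CreERT2 is not given in the sources used here. There was 1 library per genotype and no replicate, mice were taken irrespective of sex, and the intervals given cover counting error only.

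The airway lining is made of ciliated cells that move mucus and secretory cells that produce it. Club cells, the secretory cells of the small airways, release secretoglobins and detoxify inhaled compounds through cytochrome P450 enzymes, whereas goblet cells of the larger airways and the submucosal glands produce mucins and antimicrobial proteins. Among the 10 genes, Scgb1a1, Scgb3a1 and Scgb3a2 encode secretoglobins, Cyp2f2 a club-cell cytochrome P450, Muc5b a gel-forming mucin, Reg3g an antibacterial lectin, Bpifa1 and Bpifb1 secreted proteins of the BPI fold family, Pigr the receptor that carries polymeric immunoglobulins across epithelium, and Hp the haemoglobin-binding protein haptoglobin.

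In the mouse genome (GRCm39), Reg3g lies at chr6:78443246-78445859 (minus strand), Bpifa1 at chr2:153984800-153991139, Bpifb1 at chr2:154032738-154062289, Scgb3a1 at chr11:49549630-49555945, Muc5b at chr7:141392807-141426821, Pigr at chr1:130754397-130779986, Cyp2f2 at chr7:26819322-26833090, Hp at chr8:110301759-110305804 (minus strand) and Scgb1a1 at chr19:9061000-9065326 (minus strand). Unless marked, genes are on the plus strand. Promoter sequence of RefSeq (table built on GRCm38.p6) was read for 6 of the members, and each 250-base window read before a start site matched GRCm39 exactly once. Shown are the windows of Reg3g, Bpifa1, Bpifb1 and Scgb3a1, whose UMIs within secretory-like cells lay mostly in goblet-like cells and which were lower together in the Hgf iPCKO library, and that of Cyp2f2, which did neither. Capitals mark matches on either strand and did not overlap. The letters searched were TATAAA for the core promoter box, CAAGTG for factors of the NKX2 family, GGAAGT for the ETS family, TTCNNNGAA for the STAT family and TGTTTAC for forkhead factors.
Reg3g, chr6:78445858-78446107, minus strand: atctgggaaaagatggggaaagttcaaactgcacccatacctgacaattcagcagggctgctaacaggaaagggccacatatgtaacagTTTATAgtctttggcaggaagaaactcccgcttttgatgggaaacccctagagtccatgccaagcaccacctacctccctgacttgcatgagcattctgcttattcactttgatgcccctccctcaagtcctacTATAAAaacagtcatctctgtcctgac
Bpifa1, chr2:153984550-153984799, plus strand: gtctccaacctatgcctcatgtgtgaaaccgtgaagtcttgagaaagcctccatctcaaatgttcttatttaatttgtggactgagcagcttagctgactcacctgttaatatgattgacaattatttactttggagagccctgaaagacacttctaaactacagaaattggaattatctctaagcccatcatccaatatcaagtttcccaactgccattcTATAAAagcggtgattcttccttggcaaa
Bpifb1, chr2:154032488-154032737, plus strand: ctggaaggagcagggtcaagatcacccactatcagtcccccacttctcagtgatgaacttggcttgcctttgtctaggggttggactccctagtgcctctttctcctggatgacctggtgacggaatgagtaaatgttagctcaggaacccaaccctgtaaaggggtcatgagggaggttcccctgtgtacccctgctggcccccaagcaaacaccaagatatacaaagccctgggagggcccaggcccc
Scgb3a1, chr11:49554172-49554421, plus strand: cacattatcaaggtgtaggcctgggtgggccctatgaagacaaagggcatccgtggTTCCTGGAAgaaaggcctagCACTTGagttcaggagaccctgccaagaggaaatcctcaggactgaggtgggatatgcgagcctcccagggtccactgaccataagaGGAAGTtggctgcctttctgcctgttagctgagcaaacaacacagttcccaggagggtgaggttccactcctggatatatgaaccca
Cyp2f2, chr7:26819130-26819379, plus strand: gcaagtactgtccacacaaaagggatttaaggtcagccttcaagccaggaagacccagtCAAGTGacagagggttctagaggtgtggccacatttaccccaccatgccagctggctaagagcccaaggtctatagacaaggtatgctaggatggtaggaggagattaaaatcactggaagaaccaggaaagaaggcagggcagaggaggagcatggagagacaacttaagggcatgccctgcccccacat

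The windows of Reg3g and Bpifa1 held TATAAA 27 and 29 bases before the start site, with a further match 161 bases before the Reg3g start. TATAAA was held by 12.4% of 32851 mouse promoter windows of the same length. The letters CAAGTG, held by 11.6% of windows, were found 174 bases before the Scgb3a1 start and 191 bases before the Cyp2f2 start. GGAAGT (19.7% of windows) and TTCNNNGAA (7.02%) stood 87 and 194 bases before the Scgb3a1 start, which lies inside the annotated gene. TGTTTAC, held by 3.17% of windows, was in none of these windows, and the Bpifb1 window shown held no match to any motif searched. At a second RefSeq start of Bpifb1, inside the gene (chr2:154042050-154042299), TTCNNNGAA stood 146 bases before the start. Thus none of these motifs was found for each of the 4 genes. A match is a description of the letters and not evidence of a bound factor.

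The libraries held 69403166 to 186701379 unique molecular identifiers (UMIs, each standing for a captured transcript), and 14622 to 24311 barcodes were taken as cells, with a minimum of 1500 UMIs for the Bdnf pair and 700 for the Hgf pair. Cells were classed by marker genes, none of them a member, and those with markers of a second class were left out. Secretory-like cells numbered 306, 563, 199 and 313, or 1.78% (95% interval 1.59 to 1.99), 2.32% (2.13 to 2.51), 1.36% (1.18 to 1.56) and 1.94% (1.73 to 2.16) of all cells. Their median depth was 15219, 12309, 10249 and 8655 UMIs, so the 2 pairs differed in depth and each control was deeper than its mutant. At the edge of the gate, 27, 91, 21 and 65 of the secretory-like cells lay within 2-fold above its marker limit and 126, 187, 64 and 105 other cells within 2-fold below. The median summed level of alveolar type 2 (AT2) markers in secretory-like cells was 6749, 3330, 3997 and 1396 CPM (UMIs scaled to a total of 1000000), under the 24000 CPM that defined AT2-like cells, and that of ciliated and basal markers was 0. Between 1.74 and 2.95% of the smaller library's cell barcodes recurred in another library, but no secretory-like barcode did.

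Goblet-like cells, the secretory-like cells with at least 3 of 9 goblet markers (Gp2, Tff2, Lypd2, Agr2, Ltf, Fcgbp, Gcnt3, Spdef and Muc5ac), numbered 47, 85, 20 and 0. They made up 15.4% (11.5 to 19.9), 15.1% (12.2 to 18.3) and 10.1% (6.25 to 15.1) of the secretory-like cells in the first 3 libraries. In the Hgf iPCKO library the count was 0 of 313 cells, which allows a share of up to 1.17%. The remaining secretory-like cells are called club-like. When cells that also carried markers of a second class were kept, goblet-like cells numbered 73, 143, 34 and 4, or 13.9, 14.0, 8.33 and 0.551% of the secretory-like cells kept in the same way.

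The 10 genes together supplied 8.08, 9.44, 11.6 and 9.75% of all UMIs of secretory-like cells, against 0.570, 1.04, 0.862 and 1.49% of the UMIs of all cells. Scgb1a1 was the highest member in each library, at 26767, 44520, 58922 and 65908 CPM in the summed secretory-like cells, and on its own gave 2.68 to 6.59% of their UMIs. The secretoglobin Scgb3a2 followed at 23867, 24872, 26352 and 13333 CPM. Cyp2f2 had 17971, 14853, 18852 and 15622 CPM, and came above Scgb3a2 in the Hgf iPCKO library but below it in the other 3. These tags come from the 3' end of transcripts, 1 UMI per captured molecule, so a CPM value does not depend on transcript length in the way that whole-transcript reads do.

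The secretoglobin Scgb3a1 had 4438, 4305, 5746 and 210 CPM. Hp had 4120, 2925, 3312 and 2207 CPM, below Scgb3a1 in the first 3 libraries and above it in the last. The immunoglobulin receptor gene Pigr stood at 522, 615, 424 and 224 CPM. The antimicrobial and mucus genes spread more widely between libraries. Reg3g had 1399, 1106, 813 and 0.355 CPM, the last value resting on 1 UMI (interval 0.00899 to 1.98 CPM). Bpifa1 had 755, 325, 246 and 2.49 CPM, with 7 UMIs in the Hgf iPCKO library (0.9998 to 5.12). Bpifb1 had 733, 539, 1341 and 13.1 CPM, with 37 UMIs in the last library (9.25 to 18.1). Muc5b had 225, 326, 141 and 7.82 CPM, with 22 UMIs in the last library (4.90 to 11.8). For these 4 genes and Scgb3a1 the Hgf iPCKO library was the lowest of the 4, by more than 10-fold below each of the others, whereas the remaining 5 members kept levels within 3-fold of one another.

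**Figure D1:**
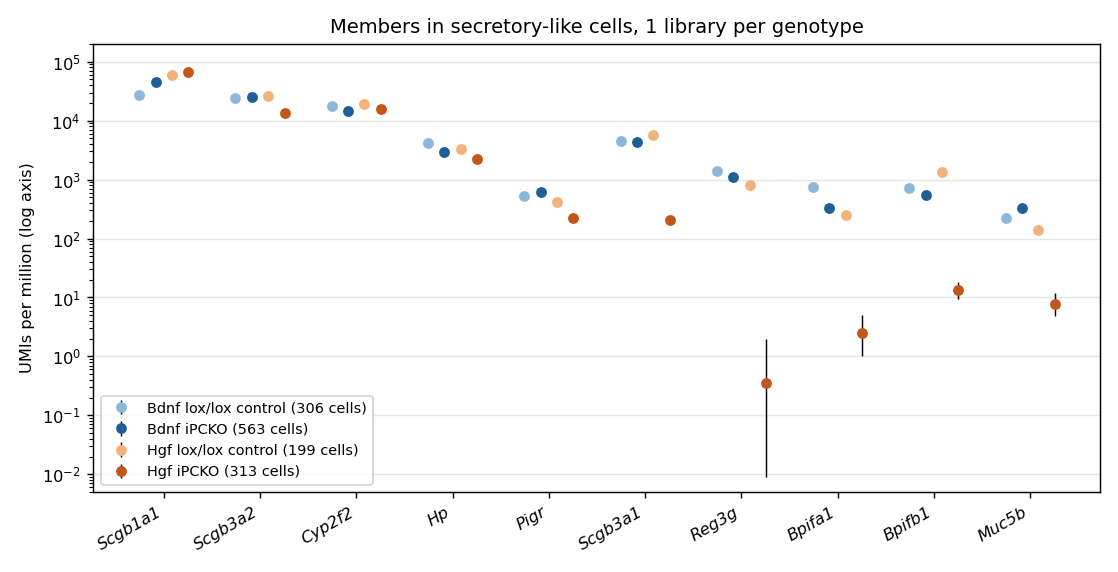
Level of each of the 10 genes in the summed secretory-like cells of each library, in CPM on a log axis, with exact Poisson 95% intervals as error bars. Scgb1a1, Scgb3a2, Cyp2f2, Hp and Pigr lie close together across the 4 libraries, while Reg3g, Bpifa1, Bpifb1, Muc5b and Scgb3a1 fall away in the Hgf iPCKO library.

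The spread between cells set the members apart in the same way. Per secretory-like cell, the median level of Scgb1a1 was 19337, 48320, 60654 and 72374 CPM and that of Cyp2f2 was 17223, 14921, 18776 and 15450 CPM. Hp had a median of 3981, 2680, 3337 and 2078 CPM per cell. The median of Scgb3a1, Reg3g, Bpifa1, Bpifb1 and Muc5b was 0 in each library, although the highest single cell reached 25571, 26563, 15596 and 90.8 CPM for Reg3g. These 5 genes were thus not detected in most secretory-like cells, and in the first 3 libraries they were abundant in a few.

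The most highly expressed members also reached counts per cell that lay close together at the top. At least 1000 UMIs of Scgb1a1 were counted in 78, 265, 48 and 81 cells, whose depth ranged from 2559 to 40614 UMIs, and the highest cell had 1267, 1349, 1144 and 1228 UMIs. For Scgb3a2 the highest cell had 1275, 1293, 1058 and 848 UMIs. For Scgb3a1 it had 1237, 1269, 1052 and 730 UMIs. The highest counts of genes that mark other cells lay in the same range, such as 1214 and 1258 UMIs of Sftpc, the surfactant protein C gene of AT2 cells, and 1333 and 1309 UMIs of Col1a1, a collagen gene of fibroblasts, in the Bdnf libraries. Across the libraries the summed Scgb1a1 level of secretory-like cells rose in the order in which their median depth fell. Whether the counting limits the number of UMIs per gene and cell was not tested. Such a limit could shrink differences in Scgb1a1 and Scgb3a2 or make them follow depth, so their ratios below may not measure expression alone.

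Within the first 3 libraries the members fell into 3 sets by where in the secretory-like cells their UMIs lay. Reg3g, Scgb3a1, Bpifa1, Bpifb1 and Muc5b were goblet-like genes, with 87.0 to 99.6% of their secretory-like UMIs in the 10.1 to 15.4% of cells called goblet-like. Cells of several classes, which were left out, held a further 24.2 to 51.5% of all Reg3g UMIs and 32.6 to 47.2% of all Scgb3a1 UMIs in these libraries. Reg3g had 9135, 6274 and 5704 CPM in goblet-like cells and 26.5, 31.1 and 6.34 CPM in club-like cells. That is a log2 ratio of 8.43 (8.15 to 8.72), 7.66 (7.45 to 7.87) and 9.81 (8.97 to 10.82). A Reg3g UMI was found in 44 of 47, 78 of 85 and 16 of 20 goblet-like cells.

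Scgb3a1 had 28211, 23914 and 39344 CPM in goblet-like cells against 222, 226 and 205 CPM in club-like cells, and was found in 46 of 47, 85 of 85 and 19 of 20 goblet-like cells. Bpifb1 had 4755, 3001 and 9158 CPM against 20.1, 26.3 and 51.9 CPM. Muc5b had 1361, 1840 and 937 CPM against 22.8, 11.5 and 9.80 CPM. Bpifa1 was the most uneven of them, with 4364, 1822 and 1734 CPM in goblet-like cells against 115, 13.9 and 1.15 CPM in club-like cells. In the Bdnf control library, 2 club-like cells held 270 and 160 of the 469 club-like Bpifa1 UMIs. Bpifa1 was also the member found in the smallest part of the goblet-like cells, 31 of 47, 40 of 85 and 13 of 20.

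Pigr and Scgb3a2 were higher in goblet-like cells but shared with club-like cells. Pigr had 2091, 2335 and 1437 CPM in goblet-like and 243, 257 and 257 CPM in club-like cells, and 48.0 to 65.4% of its secretory-like UMIs lay in goblet-like cells. Scgb3a2 had 45645, 52586 and 53717 CPM against 20005, 19107 and 21839 CPM, a log2 ratio of 1.19, 1.46 and 1.30. The third set did not favour goblet-like cells. Hp had 2036, 1435 and 2115 CPM in goblet-like against 4490, 3235 and 3509 CPM in club-like cells, a log2 ratio of -1.14, -1.17 and -0.73. Cyp2f2 was lower by -0.36, -0.60 and -0.30 on the log2 scale, and Scgb1a1 changed sides, at 0.64, 0.21 and -0.58.

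**Figure D2:**
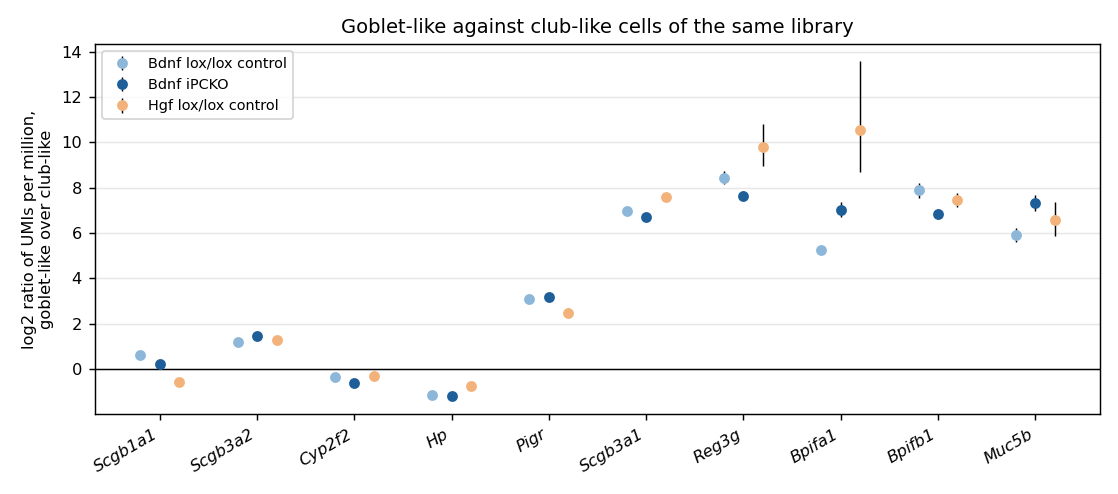
Log2 ratio of the CPM in goblet-like over club-like cells of the same library for each of the 10 genes, in the 3 libraries with goblet-like cells, with conditional exact 95% intervals as error bars. Reg3g, Scgb3a1, Bpifa1, Bpifb1 and Muc5b lie between 5.24 and 10.55, whereas Scgb1a1, Cyp2f2 and Hp lie around or below 0.

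Over single secretory-like cells of the same 3 libraries (306, 563 and 199 cells), some members of a set varied together. As a description, Spearman's rho between Reg3g and Bpifb1 was 0.88, 0.84 and 0.80, and between Cyp2f2 and Hp it was 0.56, 0.50 and 0.44. Scgb1a1 did not follow, with rho of -0.44, -0.36 and -0.28 to Cyp2f2. Between members of different sets, rho was -0.54, -0.43 and -0.32 for Reg3g and Hp, but 0.57, 0.52 and 0.39 for Reg3g and Pigr. The sets were drawn from these same cells, so the values do not test them. Cells of a library share its depth and free RNA, and the zeros of sparse counts enter these values. Whether the close-lying highest counts of Scgb1a1 named above affect its rho was not tested.

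The Hgf pair asks whether loss of mural HGF at P1 to P3 is accompanied by other levels of the members in airway cells at P21. In secretory-like cells 5 of the 10 members were lower in the Hgf iPCKO library by more than 2-fold and none was higher by more than 2-fold, where 13.3% of all genes with at least 20 UMIs in the pair passed 2-fold in either direction and 8.06% were lower. The median log2 ratio over the members was -2.58. With 0.5 UMIs added to each count it was -2.56, beside -0.11 over all genes. The 5 were Scgb3a1 and the antimicrobial and mucus genes, whose secretory-like UMIs lay mostly in goblet-like cells in the other libraries.

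Reg3g went from 1643 UMIs in the Hgf control to 1 UMI, a log2 ratio of -11.16 (-16.46 to -8.68). Bpifb1 went from 2710 to 37 UMIs, a log2 ratio of -6.67 (-7.18 to -6.21). Bpifa1 went from 498 to 7 UMIs, a log2 ratio of -6.63 (-7.95 to -5.58). Scgb3a1 went from 11611 to 590 UMIs, at a log2 ratio of -4.78 (-4.90 to -4.66), and 330 of the 590 UMIs came from 1 cell. Muc5b went from 285 to 22 UMIs, a log2 ratio of -4.17 (-4.87 to -3.55). The other 5 members stayed within 2-fold, with log2 ratios of -0.98 for Scgb3a2, -0.92 for Pigr, -0.59 for Hp, -0.27 for Cyp2f2 and 0.16 for Scgb1a1. Scgb3a2 and Pigr lay near the limit and passed it under some alternatives, reaching -1.01 and -1.10.

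**Figure D3:**
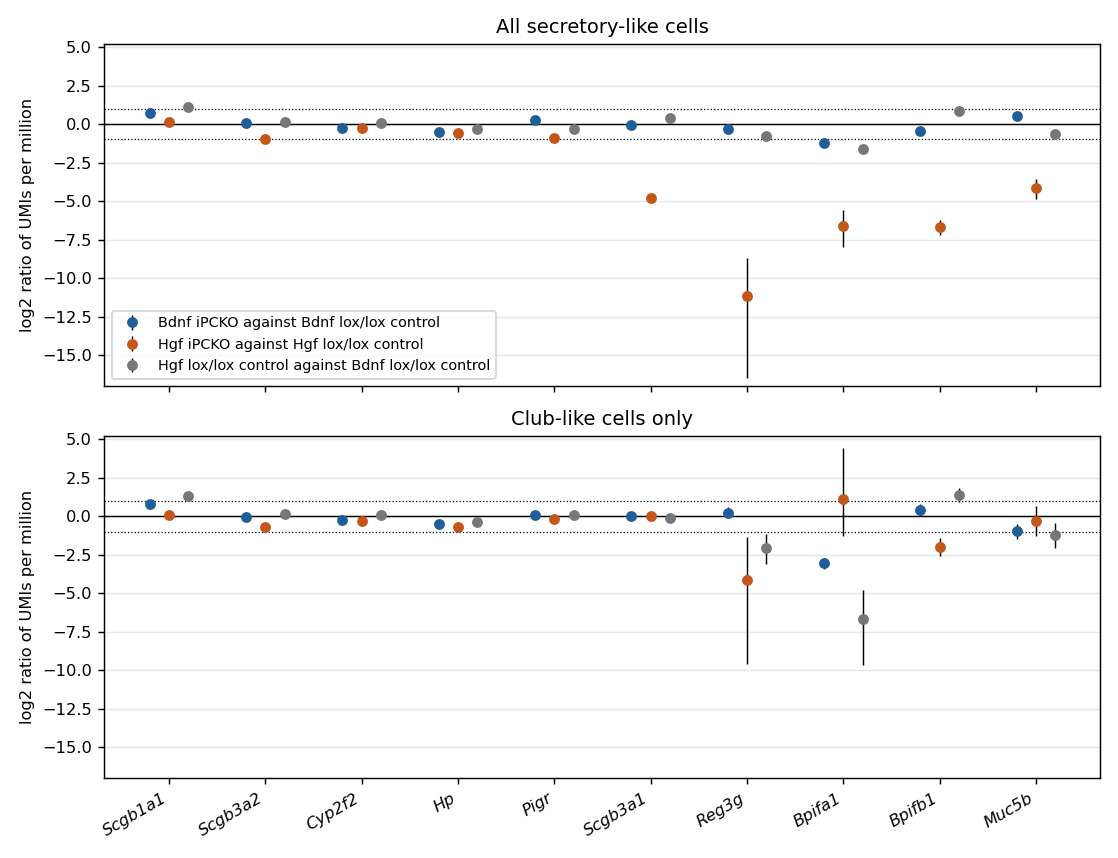
Log2 ratio of each of the 10 genes in all secretory-like cells (upper panel) and in club-like cells only (lower panel). Shown are Bdnf iPCKO over its control, Hgf iPCKO over its control and the Hgf control over the Bdnf control. Error bars are conditional exact 95% intervals. In the upper panel the Hgf pair has 5 genes between -4.17 and -11.16, whereas the largest difference between the 2 control libraries is -1.62. In the lower panel the lowest value is -4.16 in the Hgf pair and -6.64 between the controls.

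The difference of these 5 genes went with the goblet-like cells, which numbered 20 in the Hgf control and 0 in the Hgf iPCKO library. The goblet markers define these cells, so their sums in secretory-like cells largely restate that count and add no separate evidence. Gp2, a surface glycoprotein gene, went from 107 to 1 UMIs. Tff2, a trefoil peptide gene, went from 225 to 3 UMIs, and Agr2, a mucin-folding protein gene, from 133 to 2 UMIs. Other goblet markers differed less, from 339 to 73 UMIs of the lactoferrin gene Ltf and from 758 to 271 UMIs of Lypd2. The remaining markers had few UMIs. Muc5ac went from 22 to 2 and Spdef from 8 to 3, while Fcgbp (5 and 4.5) and Gcnt3 (1 and 1) hardly moved. Fewer goblet-like cells and less of their RNA per cell cannot be told apart for the cells that no longer passed the gate.

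Among club-like cells alone the 2 Hgf libraries lay closer together. Scgb3a1 stood at 205 CPM in the Hgf control and 210 CPM in the Hgf iPCKO library, a log2 ratio of 0.03. Single cells weighed heavily here, with 134 of 355 UMIs in 1 control cell and 330 of 590 in 1 mutant cell. Without the highest cell of each library the level was 128 and 92.7 CPM, a log2 ratio of -0.46 (-0.73 to -0.20). Of the 8 members with at least 20 UMIs, 1 was lower by more than 2-fold, against 12.6% of all genes past 2-fold in either direction. It was Bpifb1, which went from 90 to 37 UMIs at a log2 ratio of -1.98 (-2.57 to -1.41). The highest cell held 62 of the 90 and 21 of the 37 UMIs, and without the highest cell of each library the counts were 28 and 16 at a log2 ratio of -1.51 (-2.49 to -0.57). The remaining pair rested on few UMIs. Reg3g had 11 and 1 UMIs, a log2 ratio of -4.16 (-9.59 to -1.38), while the log2 ratio of Bpifa1, with 2 and 7 UMIs, was 1.11 (-1.28 to 4.41) and its interval held 0. Scgb3a2 and Hp were lower within 2-fold, at -0.71 and -0.67.

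A few cells of the Hgf iPCKO library did carry these transcripts together with markers of a second class. The 4 goblet-like cells of this kind had 25744 CPM of Scgb3a1. The 34 goblet-like cells of the Hgf control, with such cells kept, had 34164 CPM. These 34 included the 20 control cells without markers of another class, whereas each of the 4 mutant cells carried them. Reg3g had 1337 CPM in the 4 mutant cells against 5678 CPM in the 34 control cells. Bpifb1 had 338 CPM against 8348 CPM, and Bpifa1 had no UMI against 1565 CPM. Over all cells of the library, 104 of the 111 Reg3g UMIs lay in 4 cells of several classes (78, 21, 4 and 1 UMIs), and 10 cells held a Reg3g UMI against 76 in the Hgf control. Likewise 74.0% of the Scgb3a1 UMIs of the Hgf iPCKO library lay in cells of several classes.

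Summed over all cells, which needs no gate, the 5 genes were lower by more than 2-fold as well, while 14.7% of all genes passed 2-fold in either direction. Reg3g had 54.7 CPM in the Hgf control and 1.88 CPM in the Hgf iPCKO library. Scgb3a1 had 360 and 72.1 CPM. Bpifa1 had 14.96 and 0.238 CPM. Scgb1a1 moved the other way, from 4645 to 10746 CPM, a log2 ratio of 1.21, and was the only member higher by more than 2-fold over all cells.

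Genes of cartilage and of basal cells, which belong to the large airways, were read over all cells in 2 lists written after the values above had been seen. Of 11 cartilage genes, 6 were lower and 1 was higher by more than 2-fold in the Hgf iPCKO library than in its control, with a median log2 ratio of -1.33, where 14.7% of all genes passed 2-fold. In the Bdnf pair 3 were higher and 0 lower, with a median of 0.79, where 4.18% passed. Between the controls 0 were higher and 5 lower, with a median of -0.88, while 16.6% of all genes passed 2-fold there, so the list also differed between the control libraries. Col2a1, the main collagen of cartilage, had 8.96, 14.7, 1.95 and 0.0340 CPM (1262, 2262, 124 and 2 UMIs). The summed level of the list was nearly even at 49.6, 64.5, 54.1 and 51.7 CPM, since Hapln1, at 27.6, 23.2, 46.0 and 49.1 CPM, did not follow. No cartilage gene was at 0 in any library. Of the 6 basal-cell genes, 3 had more than 3 UMIs in either Hgf library and 0 passed 2-fold in the Hgf pair. Between the controls 4 were lower in the Hgf control, among them Krt14 with 5 UMIs in the Bdnf control and 1 in the Hgf control. The counts of both lists took genes with more than 3 UMIs in either library. The shares of all genes needed 20 UMIs in the pair, which Cnmd, with 16 and 3 UMIs in the Hgf pair, did not reach. The list summed to 3.72, 2.52, 2.11 and 2.94 CPM, and the defining marker Krt5 had 111, 41.8, 0 and 0 UMIs. Krt17 was at 0 in both Hgf libraries and Krt14 in the Hgf iPCKO library. Per the study's methods the lobes were taken and minced, and the amount of large airway in each suspension was not measured here. The part of these differences in the result was not tested.

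The same question was asked of BDNF in the Bdnf pair, whose libraries held 47 and 85 goblet-like cells. Of the 10 members, 1 was lower and none higher by more than 2-fold in secretory-like cells, against a background of 4.47% of all genes past 2-fold in either direction. Bpifa1 had 755 CPM in the Bdnf control (3620 UMIs) and 325 CPM in the Bdnf iPCKO library (2461 UMIs), a log2 ratio of -1.22 (-1.29 to -1.14). In goblet-like cells alone its log2 ratio was -1.26. In club-like cells it was -3.05 (-3.40 to -2.72), and there Bpifa1 was again the 1 member of 10 past 2-fold (background 4.89%). The club-like value rests on few cells, among them the 2 control cells with 270 and 160 UMIs named above. In secretory-like cells 2 control cells held 853 and 639 of the 3620 UMIs, and without the 2 highest cells of each library the log2 ratio was -0.83 (-0.92 to -0.74), within 2-fold. It was also within 2-fold, at -0.75, in Leiden clusters made without the members.

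The other 9 members stayed within 2-fold. Scgb1a1 was highest at a log2 ratio of 0.73, followed by Muc5b at 0.54 and Pigr at 0.24. Scgb3a2 and Scgb3a1 stood at 0.06 and -0.04, and Cyp2f2, Reg3g, Bpifb1 and Hp at -0.27, -0.34, -0.45 and -0.49. The median over the members was -0.16, beside -0.02 over all genes. Over all cells Scgb1a1 had a log2 ratio of 1.24, at 2378 CPM in the Bdnf control and 5602 CPM in the Bdnf iPCKO library, and was the 1 member of 10 past 2-fold there, beside 4.18% of all genes. This went along with a larger share of secretory-like cells and more Scgb1a1 in free RNA, whose part was not tested.

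The 2 control libraries show how far libraries of control mice lay apart. In secretory-like cells, 1 member was higher and 1 lower by more than 2-fold in the Hgf control than in the Bdnf control, with 11.4% of all genes past 2-fold. Scgb1a1 was higher, at a log2 ratio of 1.14, and Bpifa1 lower, at -1.62. The median depth of secretory-like cells was 10249 UMIs in the Hgf control against 15219 in the Bdnf control. The part of depth and of the close-lying highest counts of Scgb1a1 was not tested. Under 17 alternatives Bpifa1 was lower past 2-fold in each, and Scgb1a1 higher past 2-fold in 13, falling to 0.10 in goblet-like cells only. The others ranged from 0.87 for Bpifb1 to -0.78 for Reg3g. Thus the Bpifa1 difference of the Bdnf pair, -1.22, was smaller than that between the controls. The differences of the 5 genes in the Hgf pair were larger than that of any member between the controls in secretory-like cells. In club-like cells the controls differed more, with 2 members higher (Scgb1a1 at 1.32 and Bpifb1 at 1.37) and 3 lower (Bpifa1 at -6.64, Reg3g at -2.07 and Muc5b at -1.22), while 10.9% of all genes passed 2-fold. Single cells weighed heavily here too. Without the highest cell of each library Bpifb1 was within 2-fold, at 0.55 (-0.19 to 1.26), while the others stayed past it. Bpifa1 rested on 2 and 469 UMIs. Without the 2 highest cells of each library it was at -2.47, from 0 and 39 UMIs, with an upper bound of -2.10.

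Ciliated-like cells (225, 473, 232 and 492) served as the other airway class. In the Bdnf pair 1 of 9 members with at least 20 UMIs passed 2-fold there, beside 4.74% of all genes. It was Scgb3a1, higher in the mutant at 65.2 against 24.8 CPM (309 and 71 UMIs), a log2 ratio of 1.39. Both levels lay below free RNA, at 0.190 times it in the control and 0.367 times it in the mutant, beside 0.136 and 0.134 in endothelial-like cells, and the part of free RNA was not tested. In the Hgf pair 1 of 6 members passed 2-fold, beside 10.7% of all genes. It was Scgb1a1, at 19148 CPM in the mutant against 8527 CPM in the control, a log2 ratio of 1.17. With cells of a second class kept, it was within 2-fold at 0.53, and 5 members, the goblet-like genes, were lower past 2-fold. That set takes in cells with markers of other classes, secretory ones included, and its share over all genes was not computed. Free RNA of Scgb1a1 was also higher in the Hgf iPCKO library, as follows.

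RNA outside cells was measured in barcodes with 20 to 200 UMIs. Scgb1a1 was the highest member there, at 11215, 15476, 13063 and 31454 CPM. Scgb3a2 had 686, 1075, 857 and 858 CPM and Cyp2f2 had 653, 767, 698 and 1141 CPM. Cyp2f2 was above Scgb3a2 in the Hgf iPCKO library only. Reg3g had 39.7, 52.5, 21.2 and 1.45 CPM there, and Bpifa1 had 35.1, 18.2, 4.72 and 0 CPM, with an upper bound of 0.485 CPM for the last. Scgb3a1 was lower in the free RNA of the Hgf iPCKO library too, at 131, 178, 150 and 48.8 CPM. Reg3g, Bpifa1 and Scgb3a1 were thus lowest in the Hgf iPCKO library outside the gated cells as well.

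Secretory-like cells stood above free RNA by a median of 32.9, 23.1, 29.2 and 6.45-fold over the members. Scgb1a1 had the lowest ratio in the first 3 libraries, 2.39, 2.88 and 4.51. Endothelial-like cells, which should lack these genes, lay far below free RNA, with median ratios of 0.0631, 0.0929, 0.0431 and 0.0892. AT2-like cells did likewise, at 0.0426, 0.0713, 0.0345 and 0.0591. Hp was the exception in AT2-like cells, at 175, 142, 216 and 187 CPM or 1.44 (1.36 to 1.53), 1.11, 1.40 and 1.06 (0.991 to 1.13) times its free RNA. Ciliated-like cells exceeded free RNA in all 4 libraries for Cyp2f2, by 5.66, 4.16, 5.68 and 2.52-fold, for Hp, by 2.66, 3.08, 1.91 and 2.7-fold, and for Pigr, by 1.96, 1.73, 1.90 and 2.26-fold. Scgb3a2 stood near its free RNA there, at 0.918, 1.14, 0.844 and 1.34 times it. Scgb1a1 in ciliated-like cells lay below free RNA in each library, at 0.642, 0.841, 0.653 and 0.609 times its level. In endothelial-like cells of the Hgf pair Scgb1a1 was at 0.0557 and 0.0688 times free RNA, and the part of free RNA in the Scgb1a1 difference of ciliated-like cells was not tested.

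**Figure D4:**
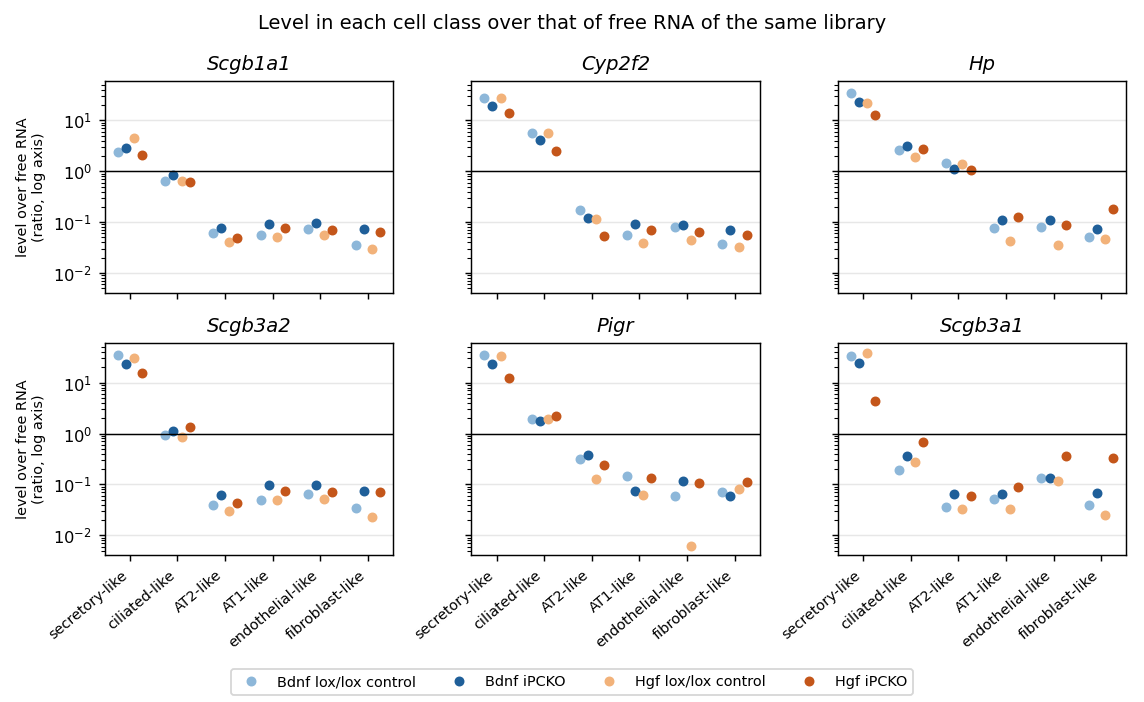
Ratio of the CPM in a cell class to the CPM in free RNA (barcodes with 20 to 200 UMIs) of the same library, on a log axis, for Scgb1a1, Cyp2f2, Hp, Scgb3a2, Pigr and Scgb3a1 in 6 cell classes. Secretory-like cells lie above 1 for each gene, endothelial-like cells below 1, and ciliated-like cells above 1 in each library for Cyp2f2, Hp and Pigr, and for Scgb3a2 in the 2 mutant libraries.

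To compare shares of cells between libraries of different depth, secretory-like cells were thinned to 1500 UMIs, which left out 0, 0, 4 and 10 cells. Cyp2f2 was then found in 100, 99.8, 98.97 and 99.7% of cells, Scgb1a1 in 93.1, 97.0, 100 and 100%, and Scgb3a2 in 96.7, 96.8, 98.97 and 93.7%. Before thinning, Scgb1a1 was found in 100% of secretory-like cells of each library. The cause of its lower thinned share in the Bdnf libraries was not tested. In AT2-like cells, at the same thinned depth, the shares were 12.4, 9.84, 10.2 and 6.38% for Cyp2f2, 42.5, 58.9, 38.4 and 61.5% for Scgb1a1 and 2.79, 7.17, 2.77 and 3.88% for Scgb3a2. Before thinning, the median depth of AT2-like cells was 8527, 5936, 4733 and 3615 UMIs.

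Hp was found in 94.4, 91.8, 94.4 and 92.1% of thinned secretory-like cells and Pigr in 34.3, 30.6, 31.3 and 21.8%. Before thinning, Pigr was found in 71.2, 66.3, 71.9 and 51.8%. Reg3g was found in 15.7, 13.3, 8.72 and 0% of thinned secretory-like cells, the last allowing a share of up to 1.21%, and in 18.6, 17.8, 9.55 and 0.320% before thinning. AT2-like cells held a Reg3g UMI in 0.189, 0.329, 0.0743 and 0% of cells. Scgb3a1 was found in 19.6, 17.8, 13.3 and 3.30% of thinned secretory-like cells. Bpifb1 was found in 16.3, 11.7, 10.3 and 0.330%, Muc5b in 14.4, 13.1, 8.21 and 1.32%, and Bpifa1 in 9.48, 5.51, 4.62 and 1.32%. The shares of these 5 genes were lowest in the Hgf iPCKO library at equal depth. Thinning draws UMIs at random, and another draw of the same Hgf iPCKO cells gave 0.990% for Bpifb1, 1.65% for Muc5b and 0.660% for Bpifa1.

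**Figure D5:**
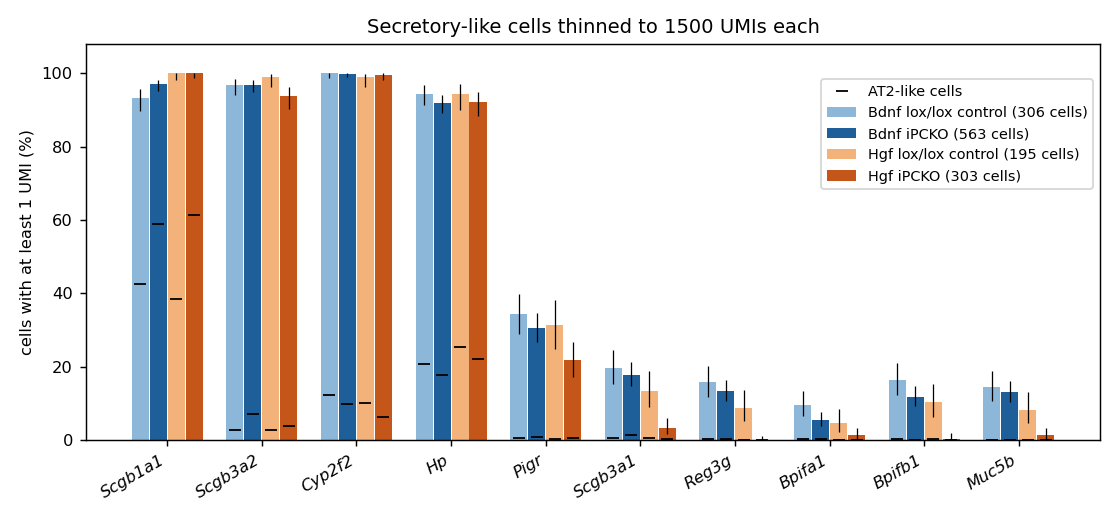
Percent of secretory-like cells with a UMI of each of the 10 genes after each cell was thinned to 1500 UMIs, as bars by library with Clopper-Pearson 95% intervals, and black ticks for AT2-like cells. Cyp2f2, Scgb1a1, Scgb3a2 and Hp stand above 90% in each library, while the 5 goblet-like genes stand below 20% and reach 3.30% or less in the Hgf iPCKO library.

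Other genes of the airway lining were read from lists in secretory-like cells, against the 4.47% of all genes past 2-fold in the Bdnf pair and 13.3% in the Hgf pair. Of 14 airway transcription factor genes, 0 of 14 counted in the Bdnf pair and 0 of 13 in the Hgf pair passed 2-fold, with medians of -0.12 and -0.44. Nkx2-1, the lung lineage factor, stood at 138, 124, 128 and 133 CPM. Of 20 further secreted defence and mucin genes, 2 were higher and 2 lower in the Bdnf pair, of 19 counted. They were Bpifb5 at 1.97 (5 and 31 UMIs), Lyz1, a lysozyme gene, at 1.59, the chitinase-like gene Chil4 at -1.71 and the membrane mucin gene Muc20 at -1.37. Chil4 differed more between the controls, at -7.06.

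In the Hgf pair, 1 of 16 counted defence and mucin genes was higher, the protease inhibitor gene Slpi at 1.11 from 5 and 15 UMIs with an interval that holds 0, and 4 were lower. Among the 4, the membrane mucin genes Muc4 and Muc20 went from 72.7 to 9.24 CPM (log2 ratio -2.98) and from 62.9 to 11.7 CPM (-2.42). The other 2, outside the rule for named genes and named after their values were seen, were Retnla, a resistin-like gene, at -2.20 and the complement gene C3 at -1.36.

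Of 24 genes of xenobiotic and aldehyde metabolism, the group to which Cyp2f2 belongs by function, 0 of 23 counted passed 2-fold in the Bdnf pair. In the Hgf pair 3 of 22 were higher, among them Cyp2b10, which went from 82.6 to 321 CPM (1.96), and 3 were lower, with Cyp2a5 from 68.0 to 12.1 CPM (-2.49) and Cyp1b1 at -1.73. Aldh3a1, at -1.45, was the remaining lower gene, named after its value was seen. Between the controls Cyp2b10, Cyp2a5 and Cyp1b1 differed by 2.33, -2.29 and 1.34, so that Cyp2b10 differed more between the controls than within the Hgf pair. The medians of the list were -0.08 and 0.02.

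Of 14 response genes of IL-17, IL-22 and STAT3, pathways that can induce Reg3g in epithelium, 2 of 13 counted were higher in the Bdnf pair, the chemokine gene Ccl20 at 2.73 (4 and 42 UMIs) and Lrg1 at 1.05, and 0 of 10 passed 2-fold in the Hgf pair. Of 6 genes of immunoglobulin A and its transport, to which Pigr relates, 1 had enough UMIs in either pair, the cytokine gene Tnfsf13. It was within 2-fold in the Bdnf pair and lower at -1.89 in the Hgf pair.

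By Pearson's r of log2(CPM + 1) with the mean of the members over 35 combinations of class and library, the 5 genes most like the members among 19125 were Slco1a5 (0.949), Atp6v1b1 (0.948), Lrrc26 (0.943), Upk2 (0.937) and Tfap2a (0.936). Among the members themselves, Pigr was closest to the mean at 0.973 and Hp farthest at 0.770. The points of a library share its depth and free RNA.

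The targeted genes were read as a check of the labels. Over all cells Bdnf had 29.8, 27.6, 28.0 and 23.6 CPM, and Hgf had 7.44, 4.99, 9.07 and 2.68 CPM. In mural-like cells (76, 170, 60 and 204), Hgf had 145, 52.5, 118 and 26.7 CPM (44, 28, 13 and 9 UMIs) and Bdnf had 23.1, 30.0, 0 and 23.7 CPM (7, 16, 0 and 8 UMIs). Hgf was thus lowest in the library labelled Hgf iPCKO. In mural-like cells it was also lower in the Bdnf iPCKO library than in the Bdnf control, 52.5 against 145 CPM, although not targeted there, which limits this check. Bdnf, on few UMIs, was not lower in mural-like cells of the library labelled Bdnf iPCKO, so the counts did not check that label, and a 3' tag that lies outside the deleted part of a gene checks nothing.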

How the data were processed

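Lung cells were captured on the BD Rhapsody whole-transcriptome platform. The authors aligned reads with STAR 2.7.10a to GRCm39 with Gencode annotation and counted UMIs per gene and barcode without a cell filter, sharing multi-mapping reads by expectation maximization, so the deposited values are estimated counts (8.50 to 9.94% of entries not whole, at most 1.70% for a member). Sums were rounded for intervals and cells for thinning, and a cell held a gene at 0.5 UMIs or more. The strand setting of the counting is not given in the sources used here, and antisense genes overlap Cyp2f2 (Gm15883) and Pigr (Gm15848), whose reads could not be told apart without it.

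The members and gene lists were chosen with earlier results of these data known. A class needed at least 3 of its markers and a summed marker level above a limit in CPM (secretory-like 1000, on 16 of 17 markers, since ciliated-like cells held Aldh1a1 at the same level; goblet-like 3 of 9 markers and 500), with no marker gene among the members. No doublet caller was run, and the 2434, 4803, 1728 and 2441 cells of several classes were left out. UMIs were summed per library and class and scaled to all UMIs of that class. Levels carry exact Poisson, ratios conditional exact and shares Clopper-Pearson 95% intervals. With 1 library per genotype no p-value was computed. Differences past 2-fold were named among genes whose UMIs in the compared libraries summed to 20 or more, with no ratio where both counts were 3 or lower. The cartilage and basal lists were counted without the limit of 20 UMIs. All members were named, and of each list the 2 highest and 2 lowest past 2-fold in each pair, except an item that is not reported here. Python 3.11.15, numpy 2.4.6, scipy 1.17.1, pandas 2.3.3 and leidenalg 0.10.2 were used, and the scripts were tested on simulated data. The Nodal cortex libraries were not used.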

Additional observations from a re-analysis of the deposited data

Results flagged for a closer look

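Scgb3a2, Muc5b and Pigr had log2 ratios above 0 in the Bdnf pair and below 0 in the Hgf pair. Within these pairs, Muc5b passed 2-fold in the Hgf pair, and the others in neither. In club-like cells of the Bdnf pair Scgb3a2 was at -0.07 and Muc5b at -0.99 (-1.46 to -0.53). In secretory-like cells, the log2 ratio of mutant over control in the Hgf pair minus that in the Bdnf pair was -1.04 for Scgb3a2, -4.71 for Muc5b and -1.16 for Pigr. Each pair has 1 library per genotype, and the difference between the pairs was not tested.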

How the results depend on the processing

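Of 91 values that answer a comparison, 79 kept within their limits and 12 moved under the alternatives, as did 205 of 500 values of single members and 33 of 74 others. The sign changed in 21 values of single members, 2 of them past 2-fold before the change. With Leiden clusters made without the members, the count of members past 2-fold was 0 in the Bdnf pair (1 with marker gates, Bpifa1, at -0.75 with clusters) and 1 between the controls (2 with gates). Without the 2 highest cells of each library it was 0 in the Bdnf pair and 5 in the Hgf pair. In club-like cells only, it was 3 in the Hgf pair, 1 higher and 2 lower (5 in all secretory-like cells), or 1 lower among members with 20 or more UMIs, and Scgb3a1 and Bpifa1 turned to 0.034 and 1.11, and 5 between the controls. In goblet-like cells only it was 1 between the controls, and the Hgf pair gave no value because the mutant library had 0 goblet-like cells. At a gate of 5 markers the members held 7.83, 8.97, 11.1 and 8.72% of secretory-like UMIs. With cells of a second class kept, 5 members were past 2-fold in ciliated-like cells of the Hgf pair, all lower, against 1 higher in the cells of 1 class. The larger set takes in cells with markers of other classes, and its share over all genes was not computed. At 3-fold, 3 list genes passed in the Bdnf pair, against 6 at 2-fold, both with 0.5 UMIs added to each count, which put Lyz1 (1.59 without it) just under 3-fold. Reg3g and Bpifb1 stayed lower past 2-fold in 16 of 16 alternatives of the Hgf pair, Bpifa1 and Muc5b in 15 and Scgb3a1 in 14. The cause of these shifts was not tested. No paired analysis was possible because each genotype has 1 library. The sums over all cells, the goblet-like cells with a second class kept, the cartilage and basal lists, the left-out highest cells and the count of cells with at least 1000 UMIs were chosen after seeing the data.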
